A study of Mus musculus with 6 samples.

Results

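Carbonic anhydrases were followed here in mouse brown adipose tissue whose brown adipocytes lost the transcription factor Yin Yang 1 (Yy1). The genes were Car2, Car3, Car4, Car5a, Car5b, Car9, Car12 and Car14, and every probe set that the platform annotation gives to 1 of these 8 symbols was taken, which made 10 probe sets of 20380 with a single gene symbol. In genes that is 8 of 12393. These 8 genes were put together with results of the YY1bKO comparison known, so their differences between the groups are given as descriptions without a p-value. The YY1bKO group held 3 arrays from YY1flox/flox mice that also carried Ucp1Cre, and the control group held 3 arrays from YY1flox/flox mice without it. Both groups were 3.5 months of age on a mixed background of C57BL6 and 129, and both had been kept on high fat food for 3 months. Ucp1Cre acts in cells that use the Ucp1 promoter, chiefly brown adipocytes, so vessels, blood, nerve and muscle in the samples should keep Yy1. The labels do not say whether each array stands for 1 animal, so the spread between replicates may be technical.

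Carbonic anhydrases are zinc enzymes that turn carbon dioxide and water into bicarbonate and a proton, and back. Fat cells make large amounts of carbon dioxide when they burn fuel, and they need bicarbonate as a substrate for carboxylases of fat synthesis and amino acid breakdown. Members of the family are parted by place. Car2 and Car3 lie in the cytosol, Car5a and Car5b in the mitochondrial matrix, Car4 is tied to the outer cell surface by a lipid anchor, and Car9, Car12 and Car14 cross the plasma membrane with the catalytic domain outside.

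Yy1 was lower in all YY1bKO arrays, with a log2 intensity of 8.39 ± 0.02 in YY1bKO and 9.82 ± 0.18 in control tissue (SD, n = 3 each) in the brightest of its probe sets (log2 fold change -1.43 ± 0.10, SE, limma adjusted p = 0.000854). Of its 4 probe sets 3 were called lower, and the dimmest was not (-0.06, adjusted p = 0.767). Brown adipocyte markers were strong on every array, with a mean over 9 genes of 11.76 to 11.82 in YY1bKO and 11.58 to 11.66 in control arrays, and 3 of them were called higher (Ppargc1a, Zic1 and Elovl3) and 1 lower (Fabp3). Among all genes 10.2% were called higher and 8.09% lower. The brightest Ppargc1a probe set gave 1.09. Others of this gene gave 0.99 and 0.87, called higher, and 0.08 and 0.04, not called (adjusted p = 0.827 and 0.914). The Elovl3 call did not hold without any 1 YY1bKO array or control replicate 1 (adjusted p from 0.0812 to 0.129). The uncoupling protein gene Ucp1 averaged 13.78 ± 0.08 in YY1bKO and 13.92 ± 0.06 in control arrays (SD, n = 3 each, adjusted p = 0.292). These values lay near the highest log2 intensity of any probe set, 14.37, where a change could be compressed. Control replicate 2 stood apart from the other arrays. Its Pearson's r to the other controls was 0.978 and 0.981, while those correlated at 0.996 with each other, and the second principal component, with 36.0% of the variance, set it apart. Values without this array are given beside many of the results that rest on it.

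Of the 8 carbonic anhydrase genes, 2 had an adjusted p under 0.05 in the limma fit over all genes, Car2 and Car12. Both were lower in YY1bKO, where 8.09% of all genes were called lower, 10.2% higher and 18.3% in either direction. The 3 YY1bKO values lay below the 3 control values in 3 genes, Car2, Car4 and Car12, where 15.7% of all genes showed this, 22.8% had all YY1bKO values above, and 38.5% did not overlap in either direction. The median log2 fold change of the 8 genes was -0.47, against 0.04 over all genes. Since the genes were assembled with this contrast known, nothing is read from these counts. The tissue is a mixture, and fewer cells of a type cannot be told apart from less RNA per cell.

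**Figure D1:**
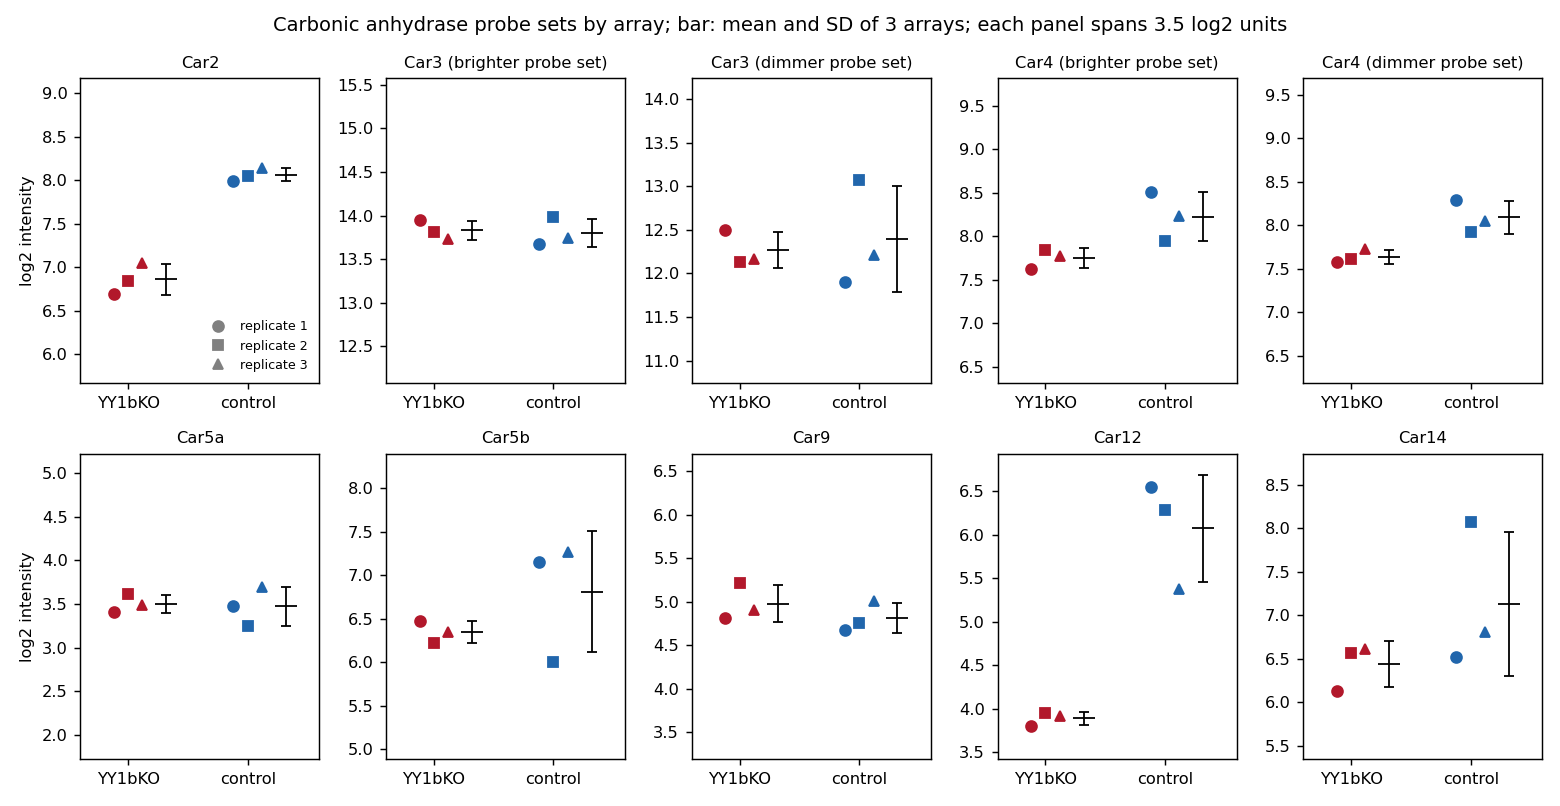
Log2 intensity of the 10 carbonic anhydrase probe sets on each array, with YY1bKO left and control right in each panel, symbols for replicate number, and the mean and SD of 3 arrays beside the points. Car2 and Car12 were separated by the widest gaps, and control replicate 2 lay apart from the other controls in Car5b, Car14 and the dimmer Car3 probe set.

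Car2, the fast cytosolic enzyme that is found in erythrocytes, kidney, osteoclasts and many other cells, had log2 intensities of 6.69, 6.84 and 7.05 in the YY1bKO arrays, against 7.99, 8.05 and 8.15 in the control arrays. The lowest control value stood almost a whole log2 unit above the highest YY1bKO value. Car2 thus averaged 2.30-fold lower in YY1bKO (log2 fold change -1.20 ± 0.11, SE). The difference stayed between -1.30 and -1.12 when any single array was left out. Erythroid markers could be compared only in part, since 4 of the 5 measured genes were dim. Their mean over the 5 measured of 9 listed was 4.93 to 4.99 in YY1bKO and 4.84 to 5.02 in control arrays, and limma called 0 of the 5, with 0 at an unadjusted p under 0.05. Over all 12393 genes, limma called 18.3%, and 3960 genes had an unadjusted p under 0.05. Alas2, the erythroid heme synthesis enzyme and the measured gene that was not dim, gave -0.33 (adjusted p = 0.249), and was called lower without control replicate 2 (-0.53, adjusted p = 0.0154), and the dim erythroid factor gene Klf1 gave 0.17 (adjusted p = 0.370). The part of blood cells in the Car2 difference was not tested.

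Car3, a slow enzyme that is abundant in adipocytes and in slow muscle fibres, was measured by a very bright and a less bright probe set. The brighter read 13.95, 13.81 and 13.73 in YY1bKO arrays, against 13.67, 13.98 and 13.74 in control arrays, near the highest log2 intensity of any probe set, 14.37. Its log2 fold change was 0.03 ± 0.11 (SE), and so near the top of the range a change could be compressed. The less bright probe set read 12.50, 12.14 and 12.17 in YY1bKO arrays, against 11.90, 13.07 and 12.21 in control arrays, with -0.13 ± 0.29 (SE). The groups overlapped in both probe sets. The high value of control replicate 2 was the widest departure. Without this array the brighter probe set gave 0.13, and the less bright was not fitted.

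Of the mitochondrial pair, Car5a, which in mouse is best known from liver, was close to the lowest intensities of the arrays, with 3.40, 3.62 and 3.48 in YY1bKO and 3.48, 3.24 and 3.70 in control arrays. At this level a difference would hardly be measurable. Car5b, the more widely expressed mitochondrial enzyme, read 6.48, 6.22 and 6.35 in YY1bKO arrays, against 7.15, 6.01 and 7.27 in control arrays. The YY1bKO values lay close together, while 2 control arrays were higher and control replicate 2 was lowest of all 6. The log2 fold change was -0.46 ± 0.32 (SE) over all arrays and -0.86 without control replicate 2. Without that array, limma called 4 of the 8 genes, Car2, Car4, Car5b and Car12, while it called 25% of all genes, and 11.6% lower.

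Car12, a transmembrane enzyme of epithelia and kidney, read 3.80, 3.95 and 3.92 in YY1bKO arrays, against 6.55, 6.29 and 5.38 in control arrays. The groups were far apart, and the YY1bKO values lay well below 6.49, the median of all probe sets, under which a probe set is called dim here. The measured log2 fold change was -2.18 ± 0.28 (SE), with a range of -2.53 to -1.94 when single arrays were left out. With 16 added to each intensity before the logarithm, which damps dim probe sets, it was -1.45. The YY1bKO values lie in the range where, as for Car5a, little can be measured, so the size of the Car12 difference is uncertain. Car9, a transmembrane enzyme that is a classic target of the hypoxia-inducible factors, was dim on every array. It read 4.81, 5.21 and 4.91 in YY1bKO and 4.67, 4.76 and 5.0 in control arrays, with overlapping groups and 0.17 ± 0.14 (SE).

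Car4, the surface enzyme of capillary endothelium and other cells, was lower in both of its probe sets. The brighter read 7.62, 7.85 and 7.78 in YY1bKO arrays, against 8.51, 7.95 and 8.23 in control arrays, and the other 7.58, 7.61 and 7.73 in YY1bKO arrays, against 8.29, 7.93 and 8.05 in control arrays. The groups did not overlap in either, and the gap was narrow at control replicate 2. The log2 fold changes were -0.48 ± 0.15 and -0.45 ± 0.11 (SE). Without control replicate 2 the brighter gave -0.62. Endothelial markers were lower too. Their mean over all 12 genes was 8.03, 8.02 and 8.17 in YY1bKO arrays, against 8.77, 8.49 and 8.51 in control arrays. Limma called 5 of the 12 lower and 0 higher (8.09% and 10.2% of all genes), with a median of -0.50, among them the junction genes Cdh5 (-0.53 ± 0.10, SE, adjusted p = 0.0131) and Cldn5 (-1.19 ± 0.25, adjusted p = 0.0220), the VEGF receptor Kdr (-0.53 ± 0.10, adjusted p = 0.0152) and the angiopoietin receptor Tek (-0.65 ± 0.12, adjusted p = 0.0158). The count of lower genes was 3 without YY1bKO replicate 1 or 3, 1 without YY1bKO replicate 2, 2 without control replicate 1 and 9 without control replicate 2. Of all 12393 genes, 11.6% were called lower without control replicate 2, and 466 to 541 genes without each of the other arrays named here. A dim further Cdh5 probe set gave -0.23 (adjusted p = 0.155). The part of the endothelial cells in the Car4 difference was not tested.

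Car14, a membrane enzyme of muscle, brain and retina, read 6.14, 6.57 and 6.61 in YY1bKO arrays, against 6.52, 8.07 and 6.80 in control arrays. Control replicate 2 was far above the rest and the groups overlapped. The log2 fold change was -0.69 ± 0.39 (SE) over all arrays and -0.22 without control replicate 2. Of 19 skeletal muscle markers, 18 were also highest there, and the slow myosin gene Myh7 was lowest there of all 6 arrays. The mean over 19 muscle genes was 11.91, 12.11 and 11.58 in YY1bKO arrays, against 10.68, 13.18 and 10.44 in control arrays. With all arrays, only 1 of the 19, Myh7, was called (1.72 ± 0.23, SE, adjusted p = 0.00551), while 18 were called higher without control replicate 2. Of all 12393 genes, 10.2% were called higher with all arrays and 1661 genes without control replicate 2. The muscle mean was lowest in the other control arrays, and its part in the values of Car14 and Car3 was not tested.

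**Figure D2:**
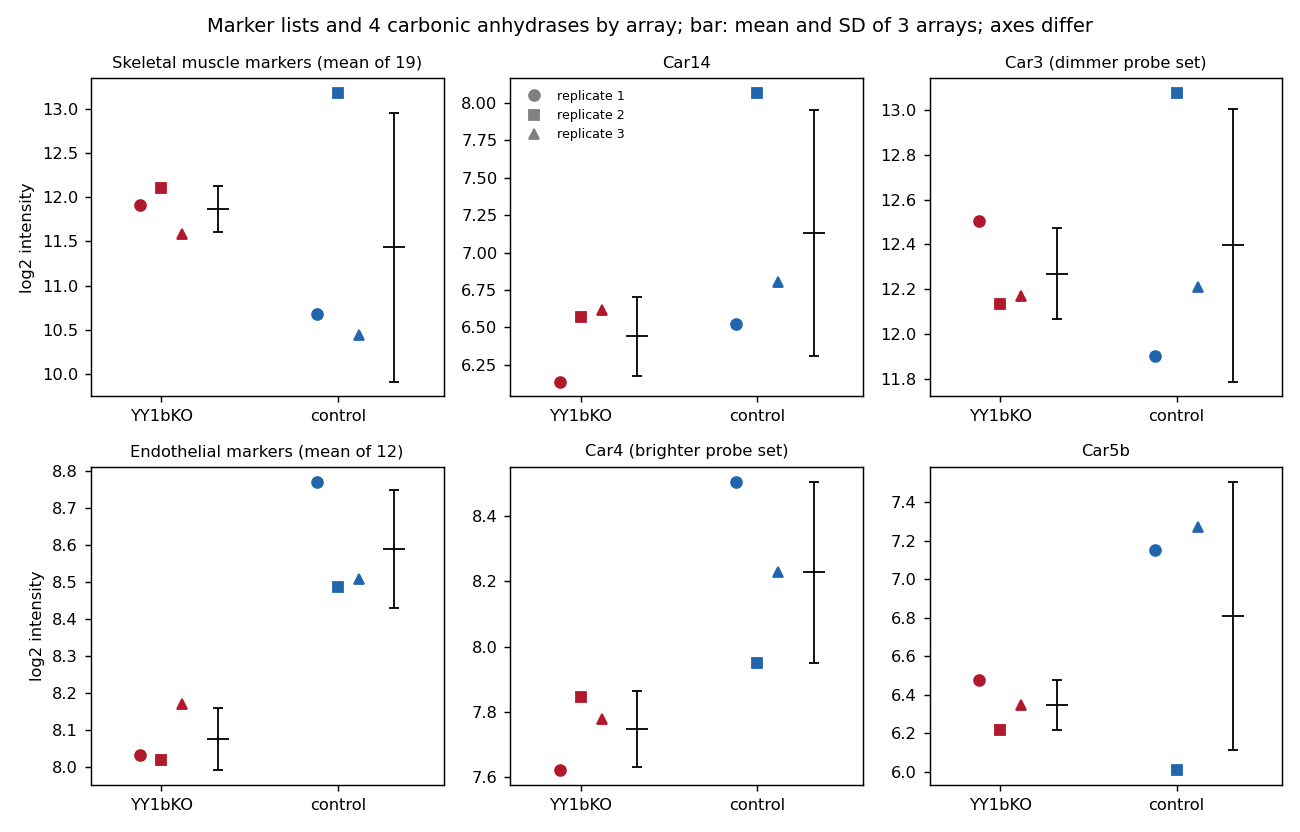
Mean log2 intensity of the skeletal muscle and endothelial marker lists beside Car14, the dimmer Car3 probe set, Car4 and Car5b on the same arrays, YY1bKO left and control right, with the mean and SD of 3 arrays. Control replicate 2, the blue square, was highest for muscle markers (13.18), Car14 (8.07) and Car3 (13.07) and lowest for Car5b (6.01).

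Promoter windows were available for 6 of the 8 genes, in RefSeq on build GRCm38.p6, and ran from 250 bases before to 50 after an annotated start. Shown are Car12, which had the largest difference, Car4, which was lower in both probe sets, and Car9, whose human counterpart has a well known hypoxia element beside its start. The Car12 window is chr9:66713436-66713735 on the plus strand, that of Car4 is chr11:84957504-84957803 on the plus strand, and that of Car9 is chr4:43506776-43507075 on the plus strand. Capitals mark any match to 3 short motifs on either strand, which do not overlap here. These were the YY1 core CCATNTT and ACGTG and GCGTG, the core of the hypoxia response element.
Car12: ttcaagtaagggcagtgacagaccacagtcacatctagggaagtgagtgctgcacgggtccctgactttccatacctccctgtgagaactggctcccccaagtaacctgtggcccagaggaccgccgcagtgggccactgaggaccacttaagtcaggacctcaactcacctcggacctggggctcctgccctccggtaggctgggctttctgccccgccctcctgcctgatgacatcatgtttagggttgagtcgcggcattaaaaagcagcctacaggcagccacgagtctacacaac
Car4: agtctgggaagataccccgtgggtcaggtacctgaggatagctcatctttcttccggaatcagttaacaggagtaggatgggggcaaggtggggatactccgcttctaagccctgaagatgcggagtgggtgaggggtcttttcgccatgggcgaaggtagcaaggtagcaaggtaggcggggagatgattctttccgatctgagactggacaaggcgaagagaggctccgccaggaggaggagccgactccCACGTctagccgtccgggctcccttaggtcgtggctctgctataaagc
Car9: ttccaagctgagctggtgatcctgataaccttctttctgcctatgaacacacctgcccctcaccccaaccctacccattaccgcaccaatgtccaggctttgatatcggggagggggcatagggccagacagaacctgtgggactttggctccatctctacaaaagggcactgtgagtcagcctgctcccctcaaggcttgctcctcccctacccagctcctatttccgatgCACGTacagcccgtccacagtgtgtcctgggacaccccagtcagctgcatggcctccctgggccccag
Of all 32851 promoter windows, 16.1% hold CCATNTT, 19.6% ACGTG and 32.4% GCGTG. The 6 windows of the family held no match to CCATNTT, which says only that these letters are absent there. The Car9 window held ACGTG on the minus strand, its capitals starting 18 bases before the start. Car14 had the same letters 7 bases before and Car4 2 bases after the start. The Car5b window held GCGTG at 5 places, and those of Car5a and Car12 held none of the 3 motifs. A match of this kind describes letters and is not a bound site.

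Car2 and Car3 lie next to each other on chromosome 3, in the order Car13, Car1, Car3, Car2 among the protein-coding genes of GRCm38.p6. The cytosolic Car13 is not among the 8 genes and is named here after its values were seen. Its brighter probe set read 7.61, 8.0 and 7.52 in YY1bKO arrays, against 8.64, 7.92 and 8.76 in control arrays, the pattern seen in Car5b, with control replicate 2 at the level of YY1bKO. It gave -0.73 ± 0.24 (SE, limma adjusted p = 0.0852), and -0.99 without control replicate 2 (adjusted p = 0.00580). The other Car13 probe set gave -0.77 ± 0.26. Car1, the erythrocyte enzyme, was dim and gave 0.12 ± 0.12 (adjusted p = 0.568). Along this stretch Car2 was lower, while the bright Car3 between Car1 and Car2 showed no visible difference.

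Among the 10 other genes of the family that were listed for comparison, receptor phosphatases with a carbonic anhydrase domain included, 2 rose and 1 fell, with a list median of 0.08. Over all genes 10.2% were called higher and 8.09% lower. Car8, a relative that lacks enzyme activity and is known for binding the inositol trisphosphate receptor, read 5.91, 5.56 and 5.61 in YY1bKO arrays, against 7.26, 7.47 and 6.97 in control arrays. The brighter Car8 probe set gave a log2 fold change of -1.54 ± 0.15 (adjusted p = 0.00220). A very dim second probe set of Car8, at 3.40 ± 0.01 in YY1bKO and 3.51 ± 0.08 in control arrays (SD, n = 3 each), gave -0.11. Car6, the secreted enzyme of saliva and milk, read 5.35, 5.54 and 5.33 in YY1bKO arrays, against 4.14, 4.28 and 4.32 in control arrays. It rose by 1.16 ± 0.09 (SE, adjusted p = 0.00118), at dim levels. Car15, a lipid-anchored enzyme, rose by 0.47 ± 0.11 (adjusted p = 0.0340), also at dim levels, but it missed the threshold when YY1bKO replicate 1 (adjusted p = 0.116), YY1bKO replicate 2 (0.12), control replicate 1 (0.103) or control replicate 3 (0.0523) was left out. Without control replicate 2 the list had 3 lower genes, with Car13 and Ptprg added, where 11.6% of all genes were called lower. Ptprg gave -0.62 without this array (adjusted p = 0.00303), against -0.36 over all arrays (adjusted p = 0.292). When dim genes were left out, Car6, Car8 and Car15 were not tested.

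**Figure D3:**
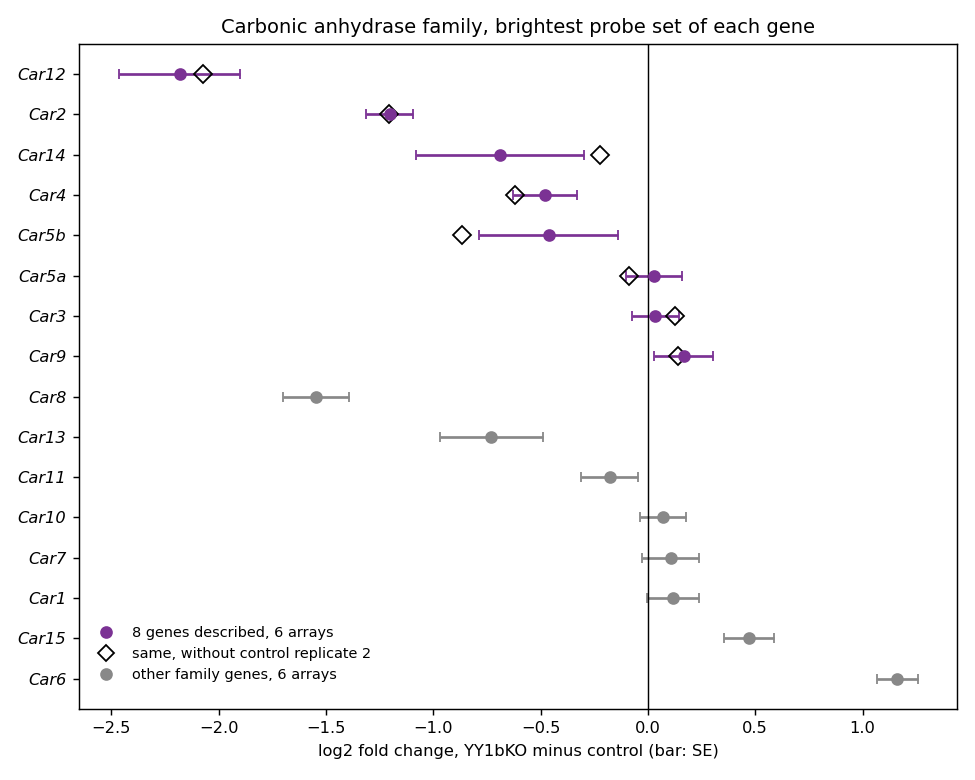
Log2 fold change, YY1bKO minus control, with SE, for the 8 carbonic anhydrases described (purple) and the 8 other enzymes and relatives of the family on the array (grey), and without control replicate 2 for the 8 described (open diamonds). Car12 and Car2 barely moved when that array was left out, while Car14 moved to -0.22 and Car5b to -0.86.

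Of 11 measured genes of bicarbonate-using carboxylases and their biotin partners, 4 fell and 0 rose, where 8.09% of all genes were called lower and 10.2% higher. The list median was -0.21, against 0.04 over all genes, and the list as a whole was not tested. Pccb, the beta subunit of mitochondrial propionyl-CoA carboxylase, read 8.66, 8.59 and 8.58 in YY1bKO arrays, against 10.04, 9.60 and 10.18 in control arrays. Pccb had a log2 fold change of -1.33 ± 0.15 (adjusted p = 0.00336), 2.52-fold lower. Pcca, the alpha subunit, gave -0.76 ± 0.13 (adjusted p = 0.0108), and Mccc1, a subunit of methylcrotonyl-CoA carboxylase in leucine breakdown, gave -0.70 ± 0.12 (adjusted p = 0.0112), which missed the threshold when YY1bKO replicate 2 was left out (adjusted p = 0.0507). Cad, the cytosolic enzyme that starts pyrimidine synthesis from bicarbonate, gave -0.56 ± 0.14 (adjusted p = 0.0357). Its other probe set gave -0.53 and missed the threshold (adjusted p = 0.0680). Leaving out YY1bKO replicate 1 (adjusted p = 0.116) or 3 (0.121), or control replicate 1 (0.0933) or 3 (0.0634), ended the Cad call. When control replicate 2 was left out, Mccc2 was called lower as well (-0.67, adjusted p = 0.0157), and the biotin ligase gene Hlcs higher (0.58, adjusted p = 0.0212). With all arrays Mccc2 gave -0.45 (adjusted p = 0.193) and Hlcs 0.39 (adjusted p = 0.222). Over all genes, 1661 were called higher and 1439 lower without control replicate 2. The acetyl-CoA carboxylase gene Acaca was called higher when control replicate 3 was left out (1.29, adjusted p = 0.0381), as were 946 of all genes. With all arrays Acaca gave 0.92 (adjusted p = 0.142), and the groups overlapped. Acacb, Cps1 and Hlcs also had values above 0 with all arrays, and the rest of the list lay below 0.

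Of 15 measured bicarbonate transporters 1 rose and 0 fell, with a list median of 0.10, where 10.2% of all genes were called higher and 8.09% lower. The same shares apply to the other lists of this paragraph. The anion exchanger Slc26a6, which trades chloride for bicarbonate, read 7.59, 7.75 and 7.91 in YY1bKO arrays, against 6.60, 7.21 and 6.96 in control arrays (0.82 ± 0.17, SE, adjusted p = 0.0191). Leaving out YY1bKO replicate 2 (adjusted p = 0.0703) or 3 (0.0753) ended this call, and without control replicate 3 the count was 2, with the exchanger Slc4a3 added (0.59, adjusted p = 0.0230). Among 10 measured proton and monocarboxylate transport genes 1 rose and 1 fell, with a median of -0.05. Slc9a3r1, a scaffold of the sodium-proton exchanger, rose by 0.53 ± 0.08 (SE, adjusted p = 0.00762), and Slc16a7, a transporter of pyruvate and lactate, fell by 1.22 (SE 0.23, adjusted p = 0.0160) at dim levels. Leaving out YY1bKO replicate 2 (adjusted p = 0.0604) or 3 (0.0660), or control replicate 1 (0.0567), ended the Slc16a7 call, and without control replicate 2 another member, Slc16a3, was called higher (0.45, adjusted p = 0.00830). With all arrays Slc16a3 gave 0.16 (adjusted p = 0.689). Over all genes, 1661 were called higher without control replicate 2. Of 5 measured genes for CO2-linked channels, Aqp1, a water channel of capillary endothelium that can also pass carbon dioxide, fell by 1.24 (SE 0.23, adjusted p = 0.0147), and 0 rose, with a median of 0.06. Its values of 10.08, 10.31 and 10.61 in YY1bKO arrays lay below the 11.98, 11.14 and 11.60 of control arrays. The endothelial list mean also separated the groups, although 3 of its 12 genes, Flt1, Eng and Esam, overlapped between them. Over all genes, 15.7% had every YY1bKO value below the control values, and 38.5% did not overlap in either direction. The part of the endothelial cells in the Aqp1 difference was not tested. The Aqp1 call ended when YY1bKO replicate 1 (adjusted p = 0.0591) or 2 (0.0604) was left out.

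CA9 and CA12 are known hypoxia targets in human cells. Of 21 measured hypoxia-induced genes 4 fell and 2 rose, where 8.09% of all genes were called lower and 10.2% higher, so the share that rose was near that of all genes. The list median was -0.26, and the list as a whole was not tested. Ak4, a mitochondrial adenylate kinase, read 5.33, 5.94 and 6.09 in YY1bKO arrays, against 7.72, 7.17 and 7.47 in control arrays, a log2 fold change of -1.67 ± 0.23 (adjusted p = 0.00573) for the brightest of 4 probe sets. Another Ak4 probe set gave -1.52, and the remaining 2, both dim, gave 0.09 and 0.07. Mxi1, a repressor of the MYC network, gave -0.62 ± 0.08 (adjusted p = 0.00436) and the glucose carrier Slc2a1 -0.80 ± 0.17 (adjusted p = 0.0225). A dim further Mxi1 probe set gave -0.41 (adjusted p = 0.126). Further Slc2a1 probe sets gave -0.79 (adjusted p = 0.0130) and, at dim levels, -0.46 (adjusted p = 0.107). The oxidoreductase of the endoplasmic reticulum Ero1a rose by 0.72 ± 0.13 (adjusted p = 0.0144). Its other probe sets gave 0.70 and 0.60 and missed the threshold (adjusted p = 0.0649 and 0.0510). The count of lower genes was 2 without YY1bKO replicate 1 or 2 and 7 without control replicate 2, with 0 higher without YY1bKO replicate 3 and 1 higher without YY1bKO replicate 1 or 2 or control replicate 1 or 3. Of all 12393 genes, 11.6% were called lower without control replicate 2, and 513 and 466 genes without YY1bKO replicate 1 and 2. Calls of higher genes fell over all genes too, from 1267 to 555, 547 and 570 without YY1bKO replicate 1, 2 and 3. They fell to 678 and 946 without control replicate 1 and 3. Leaving out YY1bKO replicate 1 (adjusted p = 0.0844) or 2 (0.0825) ended the Slc2a1 call, and leaving out YY1bKO replicate 2 (0.0626) or 3 (0.0585) that of Ero1a.

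Of 6 measured genes for the hypoxia-inducible factors and their partners 2 fell and 0 rose, with a median of -0.19. Among all genes 8.09% were called lower and 10.2% higher, and this list was not tested as a whole. Epas1, the factor also known as HIF-2 alpha and strong in endothelium, read 6.19, 6.32 and 6.18 in YY1bKO arrays, against 7.48, 6.85 and 7.73 in control arrays (-1.12 ± 0.22, SE, adjusted p = 0.0162). Hif1a gave -0.49 ± 0.12 (adjusted p = 0.0348). A further Hif1a probe set gave -0.44 (adjusted p = 0.0348), and dim ones gave -0.26 and 0.14 (adjusted p = 0.499 and 0.627). Without YY1bKO replicate 1, 2 or 3, or without control replicate 1, neither Epas1 nor Hif1a was called. The adjusted p of Epas1 then lay between 0.0571 and 0.0654, and that of Hif1a between 0.0745 and 0.12. Without control replicate 3 the Hif1a call was lost as well (0.0797).

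**Figure D4:**
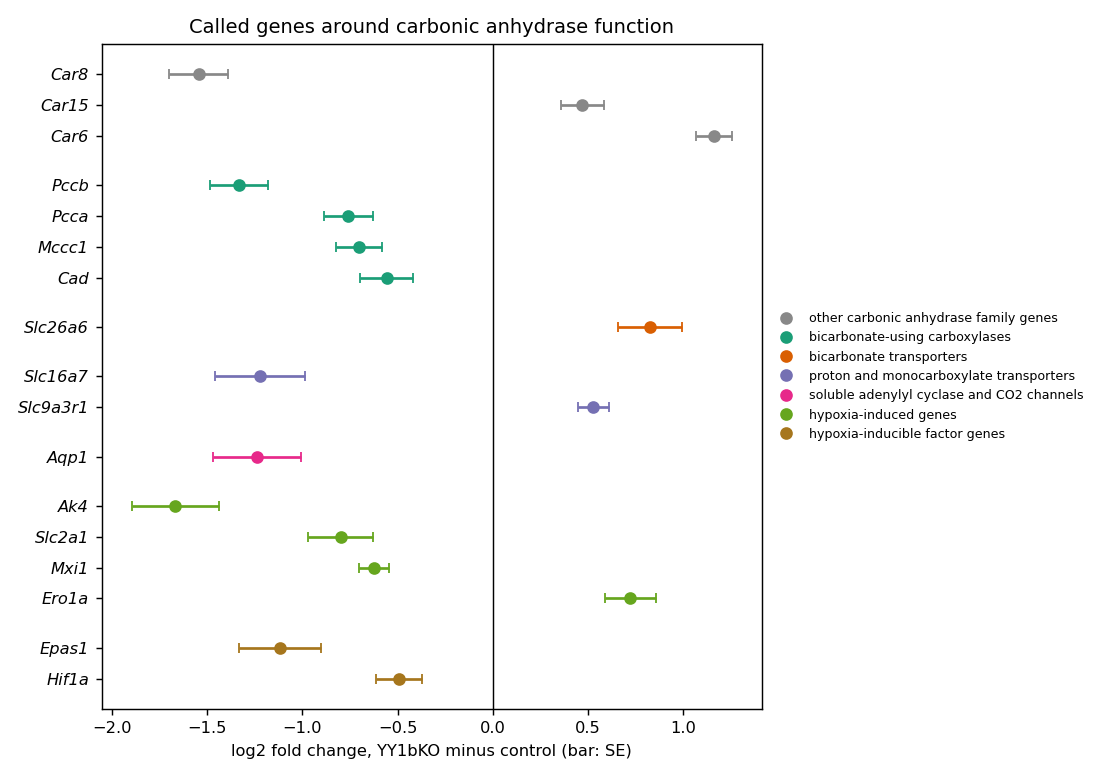
Log2 fold change, YY1bKO minus control, with SE, for up to 4 called genes of each comparison list, chosen by smallest p. The called carboxylase genes lay between -1.33 and -0.56, and Car6, Car15, Slc26a6, Slc9a3r1 and Ero1a lay above 0.

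For the members at least 2-fold apart, the genes above the median intensity whose values followed them most closely over the 6 arrays were named by Pearson's r, among 6918 candidates for Car2 and 6919 for Car12. These were Pcsk6, Prmt5 and Vldlr for Car2 (r = 0.999, 0.999 and 0.998) and Olfm1, Hnrnpa1 and Vcl for Car12 (r = 0.999, 0.999 and 0.997). All 6 were lower in YY1bKO, by 0.34 to 0.94 on the log2 scale. With so few arrays in 2 separated groups, such an r follows mainly from the difference between groups, and it is given as a description only.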

How the data were processed

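The deposited table holds 1 intensity per probe set and array, 22690 probe sets on 6 arrays, and RMA is named in the submitters' processing notes, with no version in the sources used here. As a method, RMA makes array distributions equal and pulls in fold changes of dim probe sets, so small intensities understate a change. The deposited intensities were on a linear scale, from 4.91 to 21220, and were taken to log2 without a pseudocount. On that scale the arrays had medians of 6.47 to 6.48. The array number, 3 per group, limits the precision.

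Affymetrix control probe sets (64) were removed. Of the rest, 20380 had 1 symbol in the platform annotation, 691 several and 1555 none, and Entrez identifiers matched the GRCm38.p6 gene table for 20351. A gene was represented by its brightest probe set, judged by the mean of the 6 arrays. Limma 3.58.1 in R 4.3.3 (lmFit, eBayes) was fitted to 12393 genes with group as the sole term, and to all single-gene probe sets where a further probe set is given. Tests were two-sided with Benjamini-Hochberg adjustment over all genes and a threshold of 0.05, and every adjusted p is limma's. The fit was tested on simulated data.

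The members and lists were chosen with earlier results of these data known. Named genes were Yy1, Ucp1, all members, up to 4 called genes of each list by smallest p (up to 2 where none was called), and for members at least 2-fold apart the 3 genes with the highest r. The labels do not say whether replicate numbers pair the arrays, and the main fit used no pairing. The deviations of same-numbered arrays correlated at -0.246, 0.112 and 0.261, which in groups of 3 arrays cannot settle it. The sources name no batch. Some genes of the lists are not analysed here. Alternatives were another choice of probe set, normalization, variance model, array weights, a replicate block and leaving out each array.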

Additional observations from a re-analysis of the deposited data

How the results depend on the processing

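Over all genes, 1267 were higher and 1003 lower. Leaving out 1 array gave 547 to 1661 higher and 466 to 1439 lower genes, the low ends without YY1bKO replicate 2 and the high ends without control replicate 2. With the replicate number as a block, which the labels give no reason to pair, 671 were higher and 639 lower. The comparison lists, with 10, 15, 10, 11, 5, 21 and 6 measured genes, held 19 called genes, where 18.3% of all genes were called. Leaving out 1 array gave 9 to 27. The low end came without YY1bKO replicate 2 and the high end without control replicate 2, as over all genes. Log2 fold changes of the 8 carbonic anhydrases moved by less than the spread between replicates under every alternative run, apart from Car12 with 16 added to each intensity (-1.45, against -2.18). That spread includes control replicate 2, which made it wide for Car5b and Car14, so it is a weak measure of stability there. Without this array Car5b went from -0.46 to -0.86 and Car14 from -0.69 to -0.22. Without dim genes, Car5a, Car9 and Car12 had no value. With array weights 4 of the 8 genes were called, where 1676 of all 12393 genes were called higher and 1482 lower. With the mean over probe sets 3 were called, where 1222 of all genes were higher and 924 lower. With probe sets marked _x_at or _s_at avoided where a gene had others, 3 were called, where 1245 of all genes were higher and 983 lower. Dim intensities limit what can be said of Car5a, Car9 and the size of the Car12 difference. Those near the top of the range limit what can be said of Car3 and Ucp1. Where an array was left out, its group rested on 2 arrays.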

Other observations

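The remaining marker lists gave few calls. Of 7 measured white adipocyte markers 1 was lower, the leptin gene Lep (-2.0 ± 0.32, SE, limma adjusted p = 0.00881), and 0 higher. Every other measured marker of that list had a value above 0, the largest 1.33 for Retn (adjusted p = 0.109), and the list median was 0.14. Of 6 general adipocyte markers 1 was lower, the adipocyte transcription factor gene Cebpa (-0.51 ± 0.12, adjusted p = 0.0268), and 0 higher. Among all genes 8.09% were called lower and 10.2% higher. The Cebpa call was lost without any YY1bKO array or control replicate 3 (adjusted p from 0.0533 to 0.0963), and without control replicate 2 Pparg, the master regulator of fat cells, was called lower as well (-0.39, adjusted p = 0.0434). Limma called 0 of 8 macrophage genes (0 at an unadjusted p under 0.05), 0 of 4 Schwann cell and nerve genes (2 unadjusted) and 0 of 5 lymphocyte genes (1 unadjusted). The same fit called 18.3% of all 12393 genes and gave 3960 of them an unadjusted p under 0.05. The values with the smallest p in these lists were -0.22 for Itgam and 0.25 for Cd68, -0.66 for Egr2 and 0.20 for Sox10, and 0.27 for Cd3e and 0.11 for Cd8a. Egr2 was called lower without control replicate 3 (-0.93, adjusted p = 0.0386) and Cd3e higher without control replicate 2 (0.29, adjusted p = 0.0497).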
